A study of Saccharomyces cerevisiae with 4 samples.

Results

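The 39 genes described here encode proteins of the small subunit processome and of small nucleolar ribonucleoprotein particles (snoRNPs) in budding yeast, Saccharomyces cerevisiae. They were taken by gene symbol from a table of 7126 genes, all 39 were found, and all 39 passed the filter on low values. Poly(A) RNA was sequenced from 2 libraries labelled T4V and 2 libraries labelled WT, and no other condition was measured. T4V carries a mutation in the C-terminal domain (CTD) of RNA polymerase II, in which threonine at position 4 of the heptad repeat is replaced by valine, and WT is labelled wild type. No source used here gives the strain background, the medium, the growth phase, whether the cells keep an unaltered copy of the gene, or the cultures behind the libraries, so the p-values measure the spread between these libraries, which may be technical. By its title the series concerns a link between this threonine, transcription and remodelling of chromatin through Htz1, a histone variant.

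The small subunit processome, also called the 90S pre-ribosome, forms on the nascent ribosomal RNA precursor in the nucleolus. It folds and cleaves the precursor so that the RNA of the small ribosomal subunit is released. Box C/D and H/ACA snoRNPs guide methylation and pseudouridylation of that precursor, and the box C/D particle U3 base-pairs with it as a chaperone. The genes of these proteins belong to the ribosome biogenesis regulon of yeast, which follows growth rate and nutrient supply. Many promoters of this regulon hold an element named PAC and an element named RRPE.

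The promoter stretches of 9 members are shown because the members share these elements, and because the 9 include genes called lower, genes just short of the call and genes with little difference. Bases are read 5′ to 3′ towards the gene from the RefSeq R64 assembly, which is the sequence behind sacCer3. Capitals mark matches to GATGAG, the core of PAC, or to AAAAATTT, the core of RRPE, on either strand. UTP8, NSR1 and UTP11 were the members called lower in T4V. NOP14, NOP1 and MPP10 lay just short of the call. NOP56 and CBF5 encode core proteins, have abundant transcripts and did not pass the test, and UTP22 held neither element. The stretches lie at chrVII:750142-750241 minus strand for UTP8, chrVII:807799-807898 minus strand for NSR1, chrXI:256563-256662 minus strand for UTP11, chrIV:190678-190777 minus strand for NOP14 and chrIV:427104-427203 plus strand for NOP1. Those of MPP10, NOP56, CBF5 and UTP22 lie on the plus strand at chrX:438715-438814, chrXII:545917-546016, chrXII:505950-506049 and chrVII:662158-662257.
UTP8: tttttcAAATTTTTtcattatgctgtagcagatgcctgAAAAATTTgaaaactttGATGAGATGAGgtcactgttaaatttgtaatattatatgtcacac
NSR1: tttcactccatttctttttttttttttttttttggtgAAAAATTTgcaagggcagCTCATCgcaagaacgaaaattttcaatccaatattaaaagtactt
UTP11: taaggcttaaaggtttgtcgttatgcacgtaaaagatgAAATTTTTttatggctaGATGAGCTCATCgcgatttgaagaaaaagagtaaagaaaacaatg
NOP14: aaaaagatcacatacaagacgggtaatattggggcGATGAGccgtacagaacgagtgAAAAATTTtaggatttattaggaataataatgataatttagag
NOP1: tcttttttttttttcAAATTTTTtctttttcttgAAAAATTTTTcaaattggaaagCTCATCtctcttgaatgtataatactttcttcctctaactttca
MPP10: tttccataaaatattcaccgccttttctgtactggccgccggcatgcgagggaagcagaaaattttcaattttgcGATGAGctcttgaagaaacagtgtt
NOP56: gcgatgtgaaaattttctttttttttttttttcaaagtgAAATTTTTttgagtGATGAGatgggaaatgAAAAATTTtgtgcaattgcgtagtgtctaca
CBF5: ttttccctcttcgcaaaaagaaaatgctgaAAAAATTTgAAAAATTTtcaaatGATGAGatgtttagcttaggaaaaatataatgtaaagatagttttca
UTP22: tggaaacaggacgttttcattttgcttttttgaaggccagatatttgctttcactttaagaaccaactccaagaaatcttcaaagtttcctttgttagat

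In the 300 bases before the annotated start of the coding sequence, 35 of the 39 members (89.7%) held GATGAG, against 19.1% of 6001 windows of the same length at protein-coding genes. AAAAATTT was held by 33 members (84.6%), against 15.1% of all windows. Both elements were held by 30 members (76.9%), against 5.6% of all windows, and neither by 1 member (2.56%), against 71.3%. In the lists compared below, both were held by 75% of large subunit assembly factors, 76.9% of late small subunit factors and 63.3% of further 90S factors. The shares were 22.2% of snoRNP assembly factors and 20% of regulators. In the members with both, a median of 9 bases lay between the closest pair. The pair lay within 30 bases in 27 of 30, and the AAAAATTT match was the farther from the gene in 28 of 30. DIP2 and NOP14 were the exceptions in order, and KRE33, UTP23 and RRP12 those in spacing. UTP8 held 2 overlapping GATGAG matches beside the AAAAATTT match, and UTP11 held a pair on opposite strands. Overlapping GATGAG matches also lay upstream of BFR2, ENP2, KRE33, RRP5, RRP12 and UTP18, none of which limma called. UTP4, UTP15 and UTP30 held AAAAATTT alone. RRP9, UTP7, UTP13, MPP10 and ENP2 held GATGAG alone. Both strands were searched, and an AAAAATTTTT run, as in NOP1, counts as a match on each. A match is a run of letters and not a measured binding site.

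**Figure D1:**
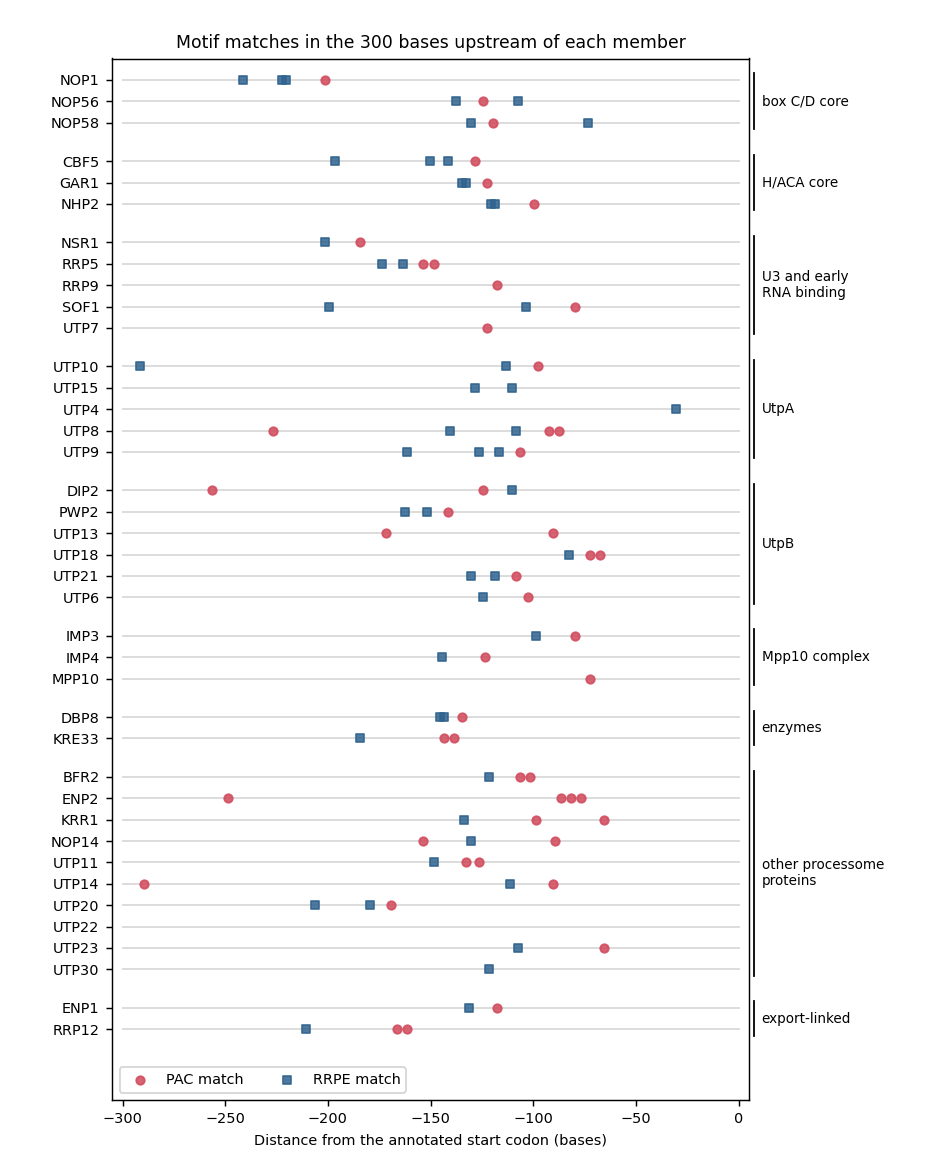
Centre of each PAC (GATGAG, circles) and RRPE (AAAAATTT, squares) match in the 300 bases upstream of each of the 39 members, by distance in bases from the annotated start codon. In 28 of the 30 genes with both, the closest RRPE match lies on the far side of the PAC match from the gene, and UTP22 has neither.

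As a check of the libraries, RPO21, the gene of the altered subunit, had 50.8 and 54.1 RPKM in T4V and 51.6 and 53.4 RPKM in WT, where RPKM is the read number scaled by gene length and library size. RPKM does not show a base change, so the genotype rests on the label. Library sizes recovered from the steps of low RPKM values ran from 3354950 to 4260850 reads. The test was limma on log2(RPKM + 1), 2-sided, and a gene is called when its Benjamini-Hochberg adjusted p over all 5935 genes tested is under 0.05. It called 692 genes higher in T4V and 371 lower. After median-of-ratios scaling these were 513 and 503, and after quantile normalization 453 and 448. They were 404 and 273 without T4V library A, and 416 and 250 without T4V library B.

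The members were a little lower in T4V as a group, and 3 of them passed the test. UTP8, NSR1 and UTP11 fell, 0 rose, and 36 did not pass. Among all genes tested, 6.25% were called lower and 11.7% higher, so the share of members called lower, 7.69%, lies near that of all genes. Before adjustment, limma gave 10 members lower and 0 higher with p under 0.05, where 11.8% of all genes were lower and 21.9% higher. With voom on recovered reads 9 members were lower and 0 higher. Of the 5578 genes in that fit, voom called 578 lower (10.4%) and 998 higher. The log2 difference, T4V minus WT, was below 0 in 35 of the 39 members, against 40.6% of all genes. Its median was -0.11 over the members and 0.07 over all genes, and it ran from -0.50 for UTP8 to 0.10 for UTP21. The members were not independent of each other, since all were read from the same 4 libraries.

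**Figure D2:**
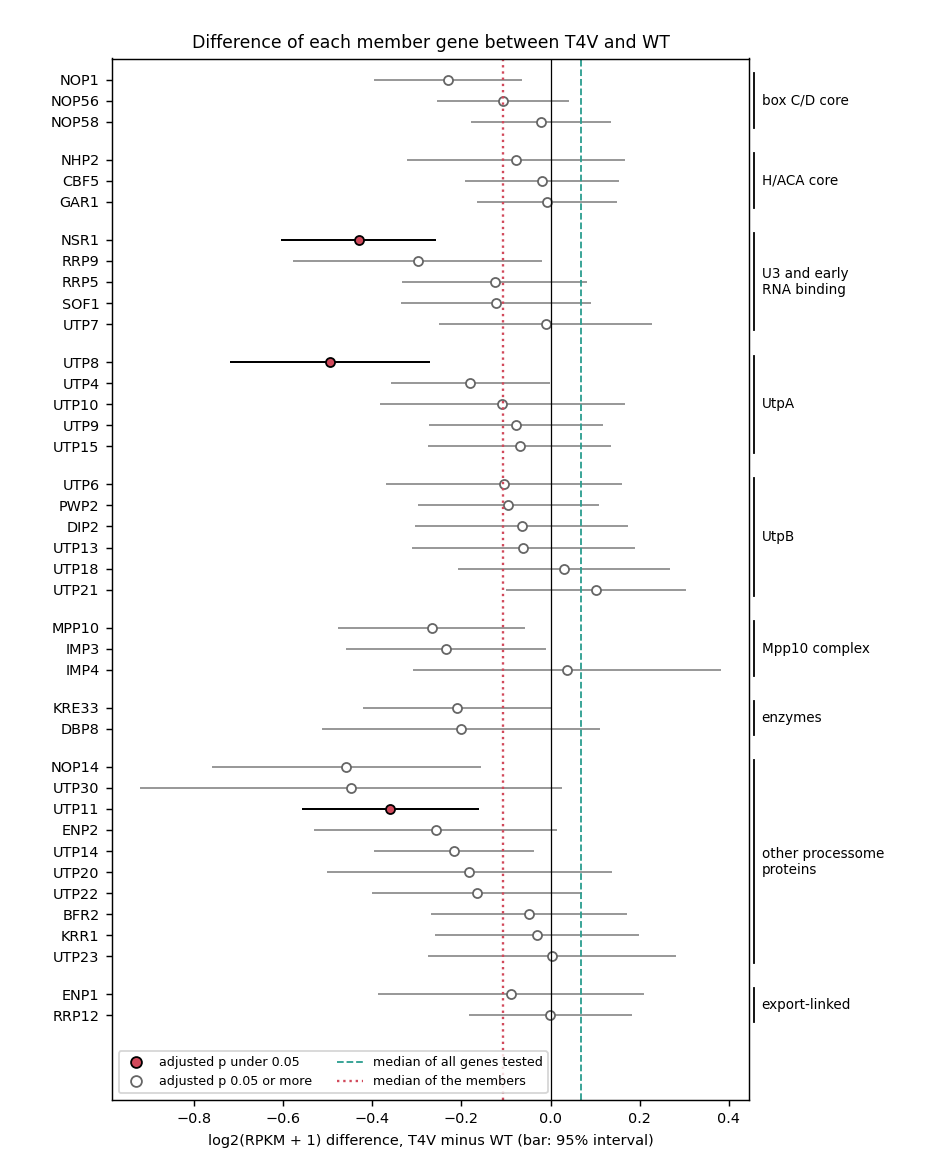
Difference of log2(RPKM + 1), T4V minus WT, with its 95% interval for each of the 39 members, by role. Filled points mark the 3 called members (UTP8, NSR1 and UTP11), the dotted line the median of the members (-0.11) and the dashed line that of all genes tested (0.07).

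Both T4V libraries lay below both WT libraries in 20 members (51.3%), against 23.4% of all genes. UTP21 was the 1 member with both T4V libraries above both WT libraries, where 38.6% of all genes were, and the groups overlapped in 18. The summed RPKM of the members was 4376 and 4330 in the T4V libraries and 4886 and 4948 in the WT libraries, so the groups did not overlap. In reads, the members took 0.742% (exact 95% binomial interval 0.733 to 0.751) and 0.731% (0.723 to 0.739) of the T4V libraries. They took 0.816% (0.807 to 0.825) and 0.832% (0.823 to 0.841) of the WT libraries. These intervals treat every read as independent, which PCR copies are not, and they leave out the spread between libraries. Part of the gap is NSR1, which held 11.5% and 11.7% of the members' reads in T4V and 14.9% and 13.0% in WT. Without NSR1 the sums were 3692.5 and 3646 RPKM in T4V and 3908.5 and 4079 RPKM in WT, again without overlap. RPKM is a share of each library, and in whole cultures fewer expressing cells and less RNA per cell cannot be told apart.

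The direction of the members' median held under every scaling tried, while its size and the number called did not. Under both other scalings the median over all genes also moved down. The gap between these medians changed less than either median did. After median-of-ratios scaling the median was -0.17 over the members and 0.01 over all genes. Then 38 members were below 0 and 7 were called lower, against 8.48% of all genes. After quantile normalization the medians were -0.16 over the members and -0.02 over all genes, with 38 members below 0 and 5 called lower, against 7.55% of all genes. With WT library A left out the members' median was -0.18 and 5 were called lower, against 5.14% of all genes. Without the variance trend of limma 0 were called lower, against 2.26% of all genes. On the genes of the full fit, 0 were called lower without T4V library A, against 0.101% of all genes, and 0 without T4V library B, against 0.168%. In those fits NSR1 and UTP8 had limma adjusted p-values of 0.128 to 0.145.

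**Figure D3:**
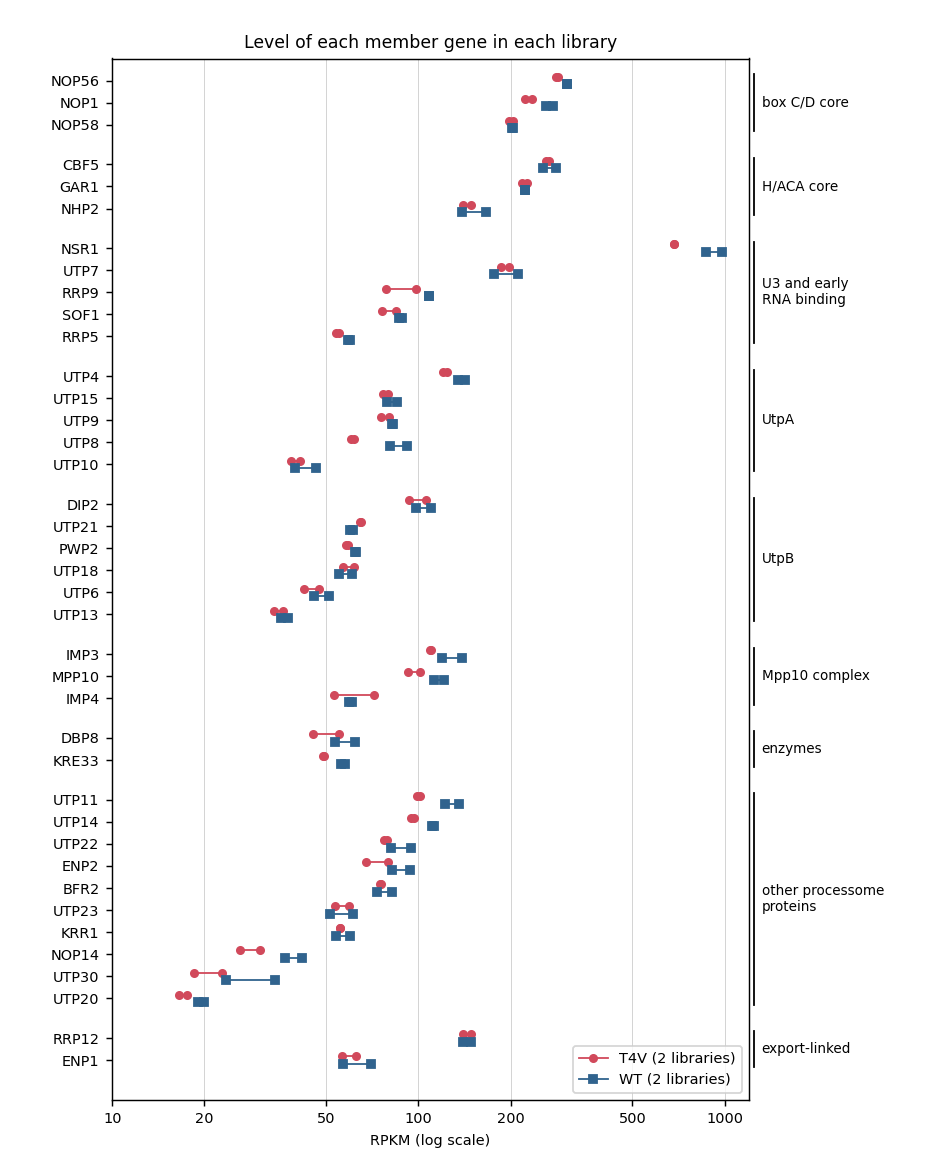
RPKM on a log scale of each member in the 2 T4V libraries (circles) and the 2 WT libraries (squares), by role. NSR1 stands highest at 683 to 978 RPKM and UTP20 lowest at 16.5 to 19.9 RPKM, and the T4V points lie to the left of the WT points in 20 members.

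The box C/D core proteins coat the guide RNAs that direct ribose methylation, and none of the 3 genes listed here was called by limma. NOP1 encodes the methyltransferase of the particle, known as fibrillarin in humans, and lies at chrIV:427364-428347. It had 235 and 222 RPKM in T4V and 275 and 262 RPKM in WT. Both T4V libraries lay below both WT libraries, with a log2 difference of -0.23 ± 0.07 (SE) and a limma adjusted p of 0.0627. NOP1 was called under both other scalings and by voom. NOP56, a scaffold protein of the particle, had 286 and 281 RPKM in T4V and 305 and 306 RPKM in WT. Its groups did not overlap either, yet its log2 difference of -0.11 did not pass (adjusted p = 0.272). NOP58, the related partner of NOP56, averaged 200.2 ± 3.93 RPKM in T4V and 203 ± 1.31 RPKM in WT (SD, n = 2 each), and its groups overlapped. Per length, the order of the levels in each library was NOP56, NOP1 and NOP58. The ratio of NOP1 to NOP56 was 0.822 and 0.790 in T4V and 0.902 and 0.856 in WT, and that of NOP58 to NOP56 was 0.710 and 0.702 in T4V and 0.664 and 0.667 in WT.

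The 3 H/ACA core genes listed here had log2 differences near 0, with a median of -0.02. CBF5 encodes the pseudouridine synthase, called dyskerin in humans, and had 267 and 262 RPKM in T4V and 280.4 and 256 RPKM in WT. The T4V values lay between the WT values. GAR1, a partner protein with glycine and arginine rich ends, averaged 222 ± 5.90 RPKM in T4V and 223 ± 0.308 RPKM in WT (SD, n = 2 each). NHP2, an RNA-binding core protein, had 139.85 and 148 RPKM in T4V and 139 and 167 RPKM in WT, so the groups overlapped. The log2 differences of CBF5, GAR1 and NHP2 were -0.02, -0.01 and -0.08, with 95% intervals from -0.19 to 0.15, from -0.16 to 0.15 and from -0.32 to 0.16. Limma called 0 of the 3 after adjustment and 0 before it, and voom also called 0.

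Among 5 genes of U3 and of early RNA-binding proteins, NSR1 fell. NSR1 encodes a nucleolar RNA-binding protein related to nucleolin, is the most abundant member and lies at chrVII:806412-807656. It had 683 and 684 RPKM in T4V and 978 and 869 RPKM in WT. The T4V libraries were nearly equal and both lay below the WT libraries, at 74.0% of the WT mean. The log2 difference was -0.43 ± 0.07 (SE), with a 95% interval from -0.60 to -0.26 and a limma adjusted p of 0.0103. It ran from -0.52 without WT library B to -0.35 without WT library A.

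RRP9, a protein particular to the U3 particle, had 98.3 and 78.1 RPKM in T4V and 107.9 and 108 RPKM in WT. The T4V libraries stood apart from each other, and the log2 difference of -0.30 did not pass (limma adjusted p = 0.127). It was -0.46 without T4V library A, where the call depended on the filter (adjusted p = 0.0354, but 0.112 on the genes of the full fit), and -0.13 without T4V library B. RRP5, a large protein that serves precursors of both subunits, averaged 54.4 ± 0.874 RPKM in T4V and 59.4 ± 0.727 RPKM in WT (SD, n = 2 each), without overlap. SOF1, a WD-repeat protein of the processome, averaged 80.3 ± 6.33 RPKM in T4V and 87.3 ± 1.12 RPKM in WT. UTP7, also with WD repeats, had 198 and 186 RPKM in T4V and 177 and 212 RPKM in WT. The T4V values of UTP7 lay between the WT values, and neither RRP5, SOF1 nor UTP7 passed the test.

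UtpA is the complex that joins the precursor RNA first, and of its 5 genes listed here UTP8 fell. UTP8, also linked to the export of transfer RNA from the nucleus, lies at chrVII:747950-750091. It had 60.1 and 61.5 RPKM in T4V and 81.0 and 91.5 RPKM in WT, from 432 and 561 reads in T4V and 706 and 716 reads in WT. Both T4V libraries were well below both WT libraries, at 70.5% of the WT mean. The log2 difference was -0.50 ± 0.09 (SE), with a 95% interval from -0.72 to -0.27 and a limma adjusted p of 0.0152. It was the lowest log2 difference of the 39 members and ran from -0.58 without WT library A to -0.41 without WT library B.

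The other UtpA genes did not pass. UTP4 had 124 and 121 RPKM in T4V and 134 and 142 RPKM in WT. Its groups did not overlap, and its log2 difference was -0.18 (limma adjusted p = 0.142). UTP9, UTP10 and UTP15 had log2 differences of -0.08, -0.11 and -0.07. Among these 3, the T4V and WT libraries of UTP9 did not overlap. The ratio of UTP8 to UTP9 was 0.794 and 0.767 in T4V and 0.987 and 1.11 in WT. Within the complex, mean levels over all libraries ran from 41.3 RPKM for UTP10 to 130.2 RPKM for UTP4.

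None of the 6 genes of UtpB, a second early complex built largely of WD-repeat proteins, was called by limma. Before adjustment 0 had p under 0.05, and with voom 0 were called. DIP2 had 106 and 93.2 RPKM in T4V and 98.4 and 110.05 RPKM in WT, so the groups overlapped. UTP6 had 42.1 and 47.4 RPKM in T4V and 45.5 and 50.9 RPKM in WT, with overlap and a log2 difference of -0.11. UTP21 averaged 64.7 ± 0.413 RPKM in T4V and 60.2 ± 0.986 RPKM in WT (SD, n = 2 each). Its groups did not overlap, and its log2 difference of 0.10 had a 95% interval from -0.10 to 0.30 and a limma adjusted p of 0.441. PWP2, UTP13 and UTP18 had log2 differences of -0.09, -0.06 and 0.03. UTP18 stood at -0.03 under both other scalings, and UTP21 was the only member above 0 under each scaling tried.

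The Mpp10 complex holds Mpp10 with Imp3 and Imp4, which bring U3 and the precursor RNA together. MPP10 had 101 and 92.6 RPKM in T4V and 112 and 122 RPKM in WT. Its groups did not overlap, and the log2 difference was -0.27 ± 0.09 (SE, limma adjusted p = 0.0820). MPP10 was called after median-of-ratios scaling and by voom. IMP3 had 109.6 and 109.3 RPKM in T4V and 119 and 139 RPKM in WT, a log2 difference of -0.23 (limma adjusted p = 0.132) without overlap. It was -0.35 without WT library A, with an adjusted p of 0.0463, but of 0.062 on the genes of the full fit. IMP4 had 52.9 and 71.5 RPKM in T4V and 59.4 and 60.5 RPKM in WT. Its T4V libraries lay on either side of the WT libraries, and the ratio of IMP3 to IMP4 was 2.07 and 1.53 in T4V and 2.01 and 2.30 in WT.

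Of the 10 further processome genes, UTP11 fell. UTP11 is an essential subunit and lies at chrXI:255720-256472. It had 101 and 98.8 RPKM in T4V and 122 and 135 RPKM in WT, from 256 and 317 reads in T4V and 375 and 372 reads in WT. Both T4V libraries were below both WT libraries. The log2 difference was -0.36 ± 0.08 (SE), with a 95% interval from -0.56 to -0.16 and a limma adjusted p of 0.0278. The call was lost when any library but WT library A was left out, at -0.29, -0.38 and -0.34 without WT library B, T4V library A and T4V library B in turn.

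NOP14, which sits in the head of the forming subunit, lies at chrIV:188154-190586. It had 30.3 and 26.1 RPKM in T4V and 36.6 and 41.6 RPKM in WT. The groups did not overlap, and the log2 difference of -0.46 ± 0.13 (SE) missed the call with a limma adjusted p of 0.0501. NOP14 was called under both other scalings, by voom and with a minimum of 10 RPKM. Without WT library A (-0.55) its adjusted p was 0.0467, but 0.0706 on the genes of the full fit. UTP30, a nonessential subunit, had 18.4 and 22.8 RPKM in T4V and 34.0 and 23.5 RPKM in WT. One WT library stood apart, and the log2 difference of -0.45 did not pass (limma adjusted p = 0.167). It was -0.70 without WT library B, with an adjusted p of 0.0318, but of 0.0552 on the genes of the full fit, and -0.19 without WT library A.

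UTP14, which activates a helicase that removes U3, averaged 95.8 ± 1.68 RPKM in T4V and 111.5 ± 0.911 RPKM in WT (SD, n = 2 each). Its groups did not overlap, and its log2 difference was -0.22 (limma adjusted p = 0.0926). ENP2 averaged 73.3 ± 8.48 RPKM in T4V and 87.7 ± 8.19 RPKM in WT, a log2 difference of -0.26 (limma adjusted p = 0.165). UTP20, a very large repeat protein, averaged 17.03 ± 0.754 RPKM in T4V and 19.5 ± 0.616 RPKM in WT. UTP22, which binds RNA together with Rrp7, averaged 77.9 ± 1.007 RPKM in T4V and 87.7 ± 9.40 RPKM in WT. The groups of these 4 genes did not overlap, and voom called UTP14 and ENP2. BFR2, KRR1 and UTP23 had log2 differences of -0.05, -0.03 and 0.00, and their groups overlapped.

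Of KRE33 and DBP8, enzymes that work outside the snoRNP cores, neither was called by limma or voom, and neither had an unadjusted limma p under 0.05. KRE33, the acetyltransferase of small subunit ribosomal RNA, had 49.1 and 48.9 RPKM in T4V and 56.0 and 57.6 RPKM in WT. Its groups did not overlap, and its log2 difference was -0.21 (limma adjusted p = 0.149). DBP8, a DEAD-box helicase, had 55.2 and 45.1 RPKM in T4V and 53.5 and 61.9 RPKM in WT, with overlap and a log2 difference of -0.20 (limma adjusted p = 0.328). ENP1 and RRP12 act in the export of the pre-ribosome from the nucleus. RRP12 had 139.9 and 148 RPKM in T4V and 149 and 139.97 RPKM in WT, so the groups overlapped. ENP1 had 62.4 and 56.2 RPKM in T4V and 56.7 and 70.1 RPKM in WT, also with overlap. Their log2 differences were -0.00 and -0.09, with 95% intervals from -0.18 to 0.18 and from -0.38 to 0.21.

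Across the 39 members, the log2 difference was only weakly related to level and length. Spearman's rho was 0.05 with log2 mean RPKM and -0.04 with coding length, and rho between length and log2 mean RPKM was -0.31. These are descriptions over genes of the same libraries. Coding lengths ran from 471 bases for NHP2 to 7482 bases for UTP20. Each member had 1 exon and no overlap with another RefSeq gene on either strand, while 1078 genes of the table had no RefSeq match and so no position to compare. By promoter, the median log2 difference was -0.10 in the 30 members with both elements, -0.26 in the 5 with GATGAG alone and -0.17 in the 4 without GATGAG. In all genes tested it was -0.05 in 332 genes with both elements, 0.06 in 728 with GATGAG alone, 0.03 in 552 with AAAAATTT alone and 0.08 in 3958 with neither. Among all genes tested, 6.25% were called lower, 11.7% were called higher and 40.6% were below 0. Of the 302 genes with both elements that are not members, 27 were called lower and 11 higher, and 59.9% were below 0. Of the 228 with both elements that are on none of the lists used here, 18 were called lower and 10 higher, 53.1% were below 0 and the median was -0.013.

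Other genes of the pathway were taken from lists written by gene name. Among all genes tested, limma called 6.25% lower and 11.7% higher. Of the 5578 genes in its fit, voom called 578 lower (10.4%) and 998 higher. At an unadjusted limma p under 0.05, 11.8% were lower and 21.9% higher. Of 30 further 90S factors, a list that also holds the snoRNP genes SNU13 and NOP10, limma called 1 lower (3.33%), NOC4, and 0 higher. Before adjustment 3 were lower and 0 higher with limma p under 0.05, and voom called 2 lower. Their median log2 difference was -0.05 and 22 were below 0. NOC4, which binds Nop14, had 55.9 and 49.2 RPKM in T4V and 85.4 and 77.8 RPKM in WT, a log2 difference of -0.63 ± 0.10 (SE, limma adjusted p = 0.00949). Of 13 factors of late small subunit maturation, 4 were called lower (30.8%) and 2 higher (15.4%), and the median was -0.00. LTV1, SLX9, RIO1 and PRP43 fell by 0.51, 0.48, 0.47 and 0.36 on the log2 scale, and all 4 kept their calls under both other scalings. Each lost it without at least 1 library. LTV1 did so without any of the 4 (-0.46 to -0.56), SLX9 without T4V library B (-0.37), RIO1 without WT library B (-0.36) or T4V library B (-0.40), and PRP43 without WT library A (-0.32), T4V library A (-0.37) or T4V library B (-0.36). PRP43, a helicase, also serves splicing. PNO1 and HRR25, at 0.29 and 0.24, were called higher, were named after their values were seen, and were not called under either other scaling or without WT library B, T4V library A or T4V library B, and HRR25 was not called without WT library A either.

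Of 9 snoRNP assembly factors, TAH1 rose by 0.42 on the log2 scale and 0 fell, where 11.7% of all genes tested were called higher. Before adjustment 0 were lower with p under 0.05. With voom 0 of the 9 were called in either direction, where 578 of 5578 genes were lower and 998 higher. TAH1 lost its call under both other scalings (0.36 and 0.35), with no filter on low values, without WT library A (0.29) and without either T4V library (0.45 and 0.39). Of 5 regulators of ribosome biogenesis genes, SFP1, DOT6, TOD6, STB3 and SCH9, limma called 0. DOT6 was lower with an unadjusted p under 0.05, by voom and after quantile normalization. Of 56 assembly factors of the large subunit, 6 were called lower (10.7%, against 6.25% of all genes tested) and 0 higher. Before adjustment 13 were lower and 0 higher with limma p under 0.05, and voom called 9 lower. Their median log2 difference was -0.13 and 48 were below 0, beside -0.11 and 35 of 39 for the processome and snoRNP genes. The difference between these lists was not tested. SDA1, NSA1, HAS1 and RLP7 fell by 0.99, 0.53, 0.47 and 0.46 on the log2 scale, and EBP2 and RLP24, named after their values were seen, by 0.34 and 0.25. HAS1 lost its call without T4V library A (-0.46), EBP2 without T4V library B, and RLP24 without any 1 of the 4 libraries. These losses are those with the filter applied to the libraries kept. On the genes of the full fit, every called gene of these 5 lists lost its call without either T4V library, NOC4, SDA1, NSA1 and RLP7 included. Without the variance trend, SDA1 alone kept a call among the genes of these 5 lists.

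**Figure D4:**
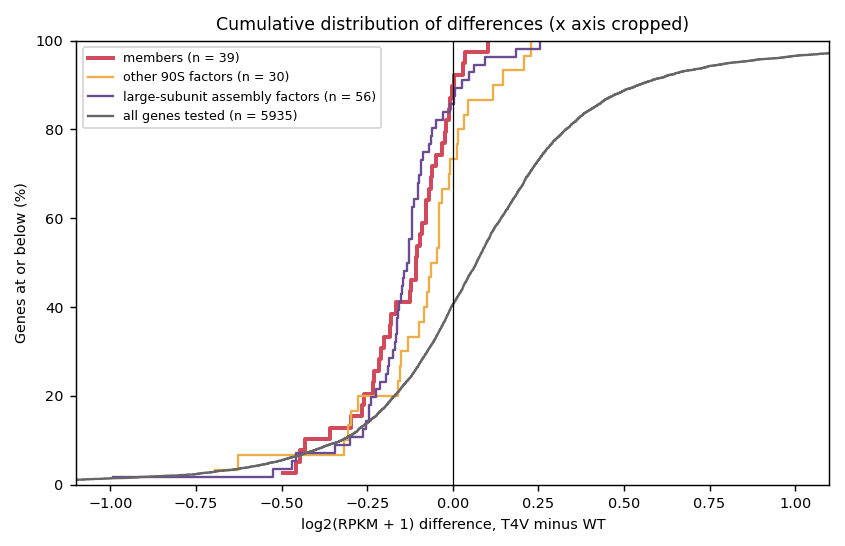
Cumulative share of genes (%) by the log2(RPKM + 1) difference, T4V minus WT, for the 39 members, 30 other 90S factors, 56 large-subunit assembly factors and all 5935 genes tested. The members reach 89.7% below 0, where all genes reach 40.6%, and the curve of the large-subunit factors (median -0.13) lies near that of the members (median -0.11).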

How the data were processed

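Poly(A) RNA libraries were strand-specific and read on an Illumina Genome Analyzer IIx, per the labels' protocols. Reads were placed with Bowtie2 on sacCer3, per the submitters' processing notes. No source used here names its version, the counter, the annotation or the strand setting. The values as deposited are RPKM, read numbers that the authors scaled by gene length and library size, with 1 column per library. Column names gave the genotype, a digit and a letter, A or B, but no replicate number. The digit is the same within each genotype and differs between them, and what it stands for is not given. The members and lists were chosen with earlier results of these data known.

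Of 7126 genes, 6048 matched the RefSeq R64 annotation by systematic name. Reads were recovered from RPKM, exonic length and a library size that made low values whole. Of genes under 10 reads, 99.1% to 99.4% came within 0.1 of a whole number. One read in a gene of 1 kb is worth 0.235 to 0.298 RPKM. Members held 51 to 4951 reads per library.

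limma 3.58.1 (R 4.3.3), with a variance trend, was run on log2(RPKM + 1) of genes that reached 1 RPKM in 2 or more libraries. Fold changes are on that scale, which understates low genes. The fit was also run on simulated data with the same spread for every gene, which cannot test the variance trend. Python 3.11.15 and scipy 1.17.1 were also used. Every member is named. Values of each library are given for called members and, per role, for the most abundant member and the one with the largest difference, and other lists give up to 4 called genes. Alternatives changed pseudocount, filter, scaling, variance model, unit (voom) and libraries. Where a library is left out, the filter was applied to the 3 kept unless stated.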

Additional observations from a re-analysis of the deposited data

How the results depend on the processing

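Pseudocount of 0.1, no filter, a minimum of 10 RPKM and robust variances left the counts of all genes and of members called within 1.5 times, while TAH1 lost its call with no filter (adjusted p = 0.0528). Genes called higher numbered 692, but 453 after quantile normalization and 265 without the variance trend. Genes called lower numbered 371, but 134 without the trend and 578 with voom. Members called lower numbered 3, but 7 after median-of-ratios scaling, 5 after quantile normalization, 9 with voom and 0 without the trend. Without the trend 5 members had an unadjusted limma p under 0.05. The share of all genes at that p was not taken for this fit, so the count cannot be read against it. The members' median of -0.11 was -0.17 after median-of-ratios scaling and -0.16 after quantile normalization. That of all genes, 0.07, was then 0.01 and -0.02.

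Leaving out 1 library was run with the filter applied to the 3 kept and, chosen after seeing the data, on the genes of the full fit. Over both, 10 to 652 genes were called higher and 6 to 321 lower, 0 to 5 members were called lower, and the members' median ran from -0.18 to -0.092. On the genes of the full fit, 10 genes higher and 6 lower were called without T4V library A, 17 and 10 without T4V library B, and 0 members were called in either case. UTP8 was then also lost without WT library B (adjusted p = 0.0573). The lone library was assumed to vary like the other group.

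Under median-of-ratios and quantile scaling, 3 members changed sign, IMP4 (-0.026 and -0.029), UTP18 (-0.032 and -0.031) and UTP23 (-0.059 and -0.053), and RPO21 stood at 0.000476 with voom. Leaving out a library turned the sign of 13 of 39 members, none of them called. Their ranges were -0.13 to 0.035 for BFR2, -0.085 to 0.046 for CBF5, -0.16 to 0.028 for DIP2, -0.24 to 0.062 for ENP1, -0.035 to 0.019 for GAR1, -0.18 to 0.25 for IMP4 and -0.11 to 0.045 for KRR1. They were -0.21 to 0.053 for NHP2, -0.044 to 0.042 for RRP12, -0.22 to 0.0029 for UTP10, -0.038 to 0.099 for UTP18, -0.12 to 0.13 for UTP23 and -0.14 to 0.12 for UTP7, beside -0.047 to 0.043 for RPO21. The cause was not tested.

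The column names end in A or B in both groups and give no replicate number, so what the letters share is unknown. A fit with the letter as replicate block, chosen after seeing the data and with 1 residual degree of freedom, called 744 genes higher and 393 lower. It called 4 members lower, NOP14 being added (adjusted p = 0.043), and 0 higher. Over 5935 genes the deviations from the group mean of libraries with the same letter had a correlation of -0.015, so the letters were not taken to pair the libraries. With 2 libraries per group the 95% intervals of single members spanned both signs for most, so small differences were not detectable at this depth of replication.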

Other observations

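The genes next to the members upstream were read in the same fit. In 14 of 39 members this neighbour is transcribed in the opposite direction, so both genes face the same upstream sequence, and in 10 of the 14 at most 600 bases separate them. The 14 divergent neighbours had a median log2 difference of 0.06, T4V minus WT, with 6 below 0, and 2 were called. These values lie near those of all genes tested, where the median was 0.07, 40.6% were below 0 and 17.9% were called. VIP1, an inositol pyrophosphate kinase gene beside UTP21, averaged 61.1 RPKM in T4V and 38.8 RPKM in WT, a log2 difference of 0.64 (limma adjusted p = 0.00871). YCG1, a condensin subunit gene beside UTP4, averaged 11.5 RPKM in T4V and 19.0 RPKM in WT, a log2 difference of -0.68 (limma adjusted p = 0.0271). The divergent neighbours of the called members, SYF2 beside UTP8 and MTC2 beside UTP11, did not pass, at -0.20 and 0.11. NSR1 has no divergent neighbour, since the gene upstream, RTS3, lies on the same strand. RTS3 averaged 269 RPKM in T4V and 162 RPKM in WT, a log2 difference of 0.73 (limma adjusted p = 0.00272).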
